A study of Homo sapiens with 12 samples.

Results

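The entries examined here are RAB4B-EGLN2 and PPAN-P2RY11, which the deposited gene table lists as readthrough transcripts of neighbouring genes, and EEF1A1P11, a pseudogene of EEF1A1, each beside its parent genes RAB4B and EGLN2, PPAN and P2RY11, and EEF1A1. They were chosen by name and make up 8 of the 29696 genes listed. RAB4B-EGLN2, PPAN-P2RY11 and EEF1A1P11 were picked because they stood among the largest increases after ALKBH5 knockdown in these same libraries, so their own change is described without support from a test. The 5 parent genes were added by name only, and their change was tested. All 8 passed the filter of a mean of 0.5 FPKM (fragments counted for a gene, scaled by transcript length and by library), RAB4B-EGLN2 only through its shALKBH5 values.

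RNA-Seq and MeRIP-Seq were run on A375, an established human melanoma line, to find what depends on the m6A demethylase ALKBH5. The shALKBH5 cells carried a lentiviral short hairpin against ALKBH5 and the shCtrl cells a control hairpin, both in a vector that carries puromycin resistance. The harvest time given for RNA-Seq falls before the described puromycin selection would have ended, so whether the sequenced cells had been selected is not clear. Each group had 3 input libraries, which give expression, and 3 IP libraries, in which RNA fragments were pulled down with an antibody to m6A. Which ALKBH5 hairpin was sequenced is not given in the sources used here, nor is whether the sequenced replicates came from separate cultures. The methods say in general that experiments were done independently, without naming the sequencing. The p-values therefore measure only the spread between these libraries, which may be technical.

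A readthrough transcript forms when transcription runs past the end of a gene into its neighbour on the same strand and splicing joins exons of both. Most of its sequence is then also found in transcripts of its parents, and some such transcripts are removed by nonsense-mediated decay. A processed pseudogene is a copy of an mRNA that was reverse transcribed and inserted elsewhere in the genome, and a young copy can be nearly identical to its parent. ALKBH5 removes m6A, the most common internal mark of mRNA, which is laid down mainly near stop codons and in 3′ UTRs.

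RAB4B and RAB4B-EGLN2 begin almost at the same base, and their start region is shown because it shows how closely the readthrough and its upstream parent coincide. RefSeq (GRCh38.p14) places it at chr19:40778218-40778247 on the plus strand, where the first capital is the start of RAB4B-EGLN2 and the last capital is the start of RAB4B.
RAB4B-EGLN2 and RAB4B starts: aGcgggtcgcgccggaggggggcggaggcG
The starts lie 28 bases apart, and the 300-base promoter windows of the 2 genes share 272 bases. In the deposited table the order is the reverse, with RAB4B from 40778216 and RAB4B-EGLN2 from 40778242 on chromosome 19. RAB4B-EGLN2 ran to 40808418 over all but the first bases of RAB4B, which ended at 40796942, and over nearly all of EGLN2, from 40798996 to 40808434. PPAN-P2RY11, from 10106223 to 10114780 on chromosome 19, covered PPAN (10106362 to 10112012) and most of P2RY11 (10111693 to 10115372), and the 2 parents overlapped each other. EEF1A1P11 lay on chromosome 1 from 96446930 to 96448318 and EEF1A1 on chromosome 6 from 73515750 to 73523797, on the minus strand.

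The targeted gene fell as labelled, from 17.6 to 19.3 FPKM of ALKBH5 in shCtrl to 3.12 to 3.92 in shALKBH5 libraries (log2 fold change -2.36, SE 0.0887). Melanocyte lineage markers were partly present, with SOX10 at 179 to 192 FPKM and S100B at 31.5 to 85.1 over the 6 libraries, whereas PMEL stayed at or below 0.690, TYR and DCT were near 0 and MLANA was not listed. Of the list MITF and S100B were higher in shALKBH5 cells, and the MITF call (adjusted p = 0.0475) was lost after rescaling and in 4 of 6 fits with a library left out, without shALKBH5 replicate 1 (adjusted p = 0.148) or 3 (0.119) or shCtrl replicate 1 (0.126) or 3 (0.133). For the whole list the summed level was 262 to 267 against 214 to 224 FPKM. The dedifferentiation markers AXL and NGFR were called lower in shALKBH5 cells. SOX9 was lower too but passed the filter only through its shCtrl values, so its fall is a description. The summed level of AXL, NGFR and SOX9 was 51.2 to 53.0 against 110 to 124 FPKM. Of all genes tested 34.7% were called higher and 26.2% lower. KRT14, the 1 keratinocyte marker listed, was at 0.242 to 0.526 against 0.830 to 1.07, endothelial markers summed to at most 0.0674, and no immune marker was listed. The part of these shifts in the results was not tested, and in bulk RNA fewer cells of a type cannot be told apart from less RNA per cell. Read depth is unknown. The FPKM sums were 221946 to 223231 in shALKBH5 and 212760 to 218966 in shCtrl libraries, and the median log2 fold change of all 12985 genes tested was 0.09.

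RAB4B-EGLN2 was listed at 4.04, 0.230 and 5.27 FPKM in the shALKBH5 replicates 1, 2 and 3, and at 0, 0.0799 and 0 in the shCtrl replicates. The groups did not overlap, but replicate 2 of shALKBH5 lay close to the shCtrl values and far below the other 2. RefSeq classes this transcript as a lncRNA, and the table describes it as a candidate for nonsense-mediated decay. Its log2 fold change was 4.00 (95% interval 1.68 to 6.32), the 4th largest rise of all genes tested. Like every fold change here, it is a difference of log2(FPKM + 0.1), which understates the change of low genes. Without shALKBH5 replicate 2 it was 5.28, and without replicate 3 it was 3.27.

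RAB4B, a small GTPase that returns cargo from early endosomes to the cell surface, was at 3.72, 3.76 and 3.57 FPKM in shALKBH5 and 3.40, 3.04 and 3.04 in shCtrl libraries. The groups did not overlap, and RAB4B rose slightly, by a log2 fold change of 0.22 (SE 0.0719, adjusted p = 0.0324, limma with Benjamini-Hochberg adjustment). This call was lost after the libraries were rescaled to a common median ratio (0.14, adjusted p = 0.177). It was also lost when any library other than shCtrl replicate 1 was left out, with adjusted p between 0.059 and 0.106. EGLN2 encodes PHD1, a prolyl hydroxylase that marks HIF alpha subunits for destruction. It was at 12.3, 13 and 11.6 FPKM in shALKBH5 and 13.8, 12.6 and 12.4 in shCtrl libraries. These ranges overlapped and EGLN2 did not pass the test (log2 fold change -0.07, 95% interval -0.22 to 0.08, adjusted p = 0.376).

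The level of RAB4B-EGLN2 passed that of RAB4B in shALKBH5 replicates 1 and 3, at 1.09 and 1.48 times it, but was 0.0611 times it in replicate 2. Among the shALKBH5 libraries, EGLN2 was highest in replicate 2, where the readthrough was lowest, and lowest in replicate 3, where the readthrough was highest. These are 3 libraries, and the order is given as a description.

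**Figure D1:**
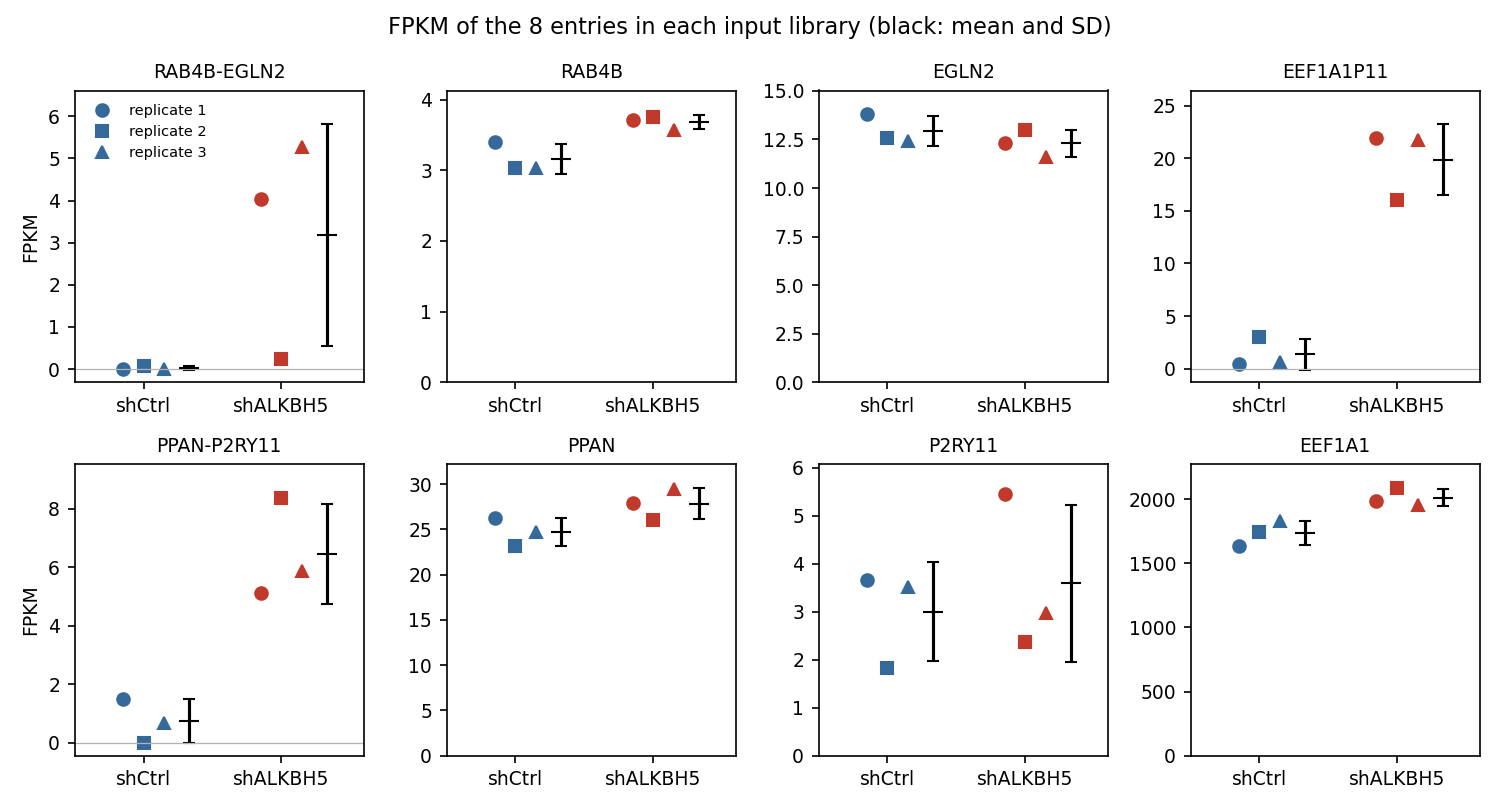
FPKM of each of the 8 entries (vertical axis, from 0 or just below) in the 3 shCtrl (blue) and 3 shALKBH5 (red) input libraries, with the symbol giving the replicate number and black bars the mean and SD. The readthrough entries and EEF1A1P11 differed widely between groups, and RAB4B-EGLN2 and P2RY11 varied widely between libraries of 1 group. RAB4B, EGLN2, PPAN and EEF1A1 stayed within narrow ranges.

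PPAN-P2RY11 was listed at 5.12, 8.37 and 5.88 FPKM in shALKBH5 and at 1.50, 0 and 0.682 in shCtrl libraries. Every shALKBH5 library lay above every shCtrl library, and the listed 0 in shCtrl replicate 2 stood apart on the log scale. The table describes it as a readthrough, and RefSeq classes it as protein-coding. Its log2 fold change was 3.68 (95% interval 1.56 to 5.80), the 5th largest rise. Without shCtrl replicate 2 it was 2.52, and without shCtrl replicate 1 it was 4.52.

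PPAN, a Brix-domain protein needed to build the large ribosomal subunit, was at 27.9, 26.1 and 29.5 FPKM in shALKBH5 and 26.3, 23.2 and 24.7 in shCtrl libraries. The groups overlapped by a narrow margin, and the log2 fold change of 0.17 (95% interval 0.02 to 0.32) missed the threshold, with an adjusted p of 0.0537 from limma. P2RY11, a G protein-coupled receptor for extracellular ATP, was at 5.45, 2.36 and 2.97 FPKM in shALKBH5 and 3.67, 1.82 and 3.52 in shCtrl libraries. Its ranges overlapped in part and its log2 fold change was 0.23 (95% interval -0.60 to 1.06, adjusted p = 0.605, limma). The sign of the P2RY11 difference turned when shALKBH5 replicate 1 (-0.11) or shCtrl replicate 2 (-0.09) was left out.

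The readthrough was at 3.55 times the level of P2RY11 in shALKBH5 replicate 2, 1.98 times in replicate 3 and 0.938 times in replicate 1. In shCtrl replicates 1, 2 and 3 the ratio was 0.408, 0 and 0.193. Within shALKBH5, PPAN-P2RY11 was highest in replicate 2, where P2RY11 was lowest, whereas in shCtrl both were lowest in replicate 2.

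EEF1A1P11 was at 21.9, 16.0 and 21.7 FPKM in shALKBH5 and at 0.428, 3.05 and 0.589 in shCtrl libraries. The groups did not overlap, with means of 19.9 ± 3.38 and 1.36 ± 1.47 (SD, n = 3 each), and replicate 2 was the lowest of the shALKBH5 and the highest of the shCtrl libraries. The log2 fold change was 4.24 (95% interval 2.81 to 5.66), the 2nd largest rise, and 5.03 without shCtrl replicate 2.

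EEF1A1, which brings aminoacyl-tRNAs to the ribosome, was at 1989, 2083 and 1957 FPKM in shALKBH5 and 1634, 1747 and 1826 in shCtrl libraries. The groups did not overlap, and EEF1A1 rose by a log2 fold change of 0.21 (SE 0.050, adjusted p = 0.00792, limma), a call that was lost after rescaling (0.13, adjusted p = 0.10). EEF1A1P11 amounted to 1.09%, 0.761% and 1.10% of the summed FPKM of the pair in shALKBH5 and to 0.0262%, 0.175% and 0.0323% in shCtrl libraries. The difference in the pseudogene, 18.5 FPKM, was small beside that of 274 FPKM in EEF1A1.

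Of the 5 parent genes, RAB4B and EEF1A1 passed the test, both higher, and after rescaling none of the 5 did. Over all genes tested 61.0% passed, 34.7% as higher and 26.2% as lower in shALKBH5 cells, so 2 of 5 is a share near or below the background. Groups did not overlap in the same 2 parents. They did not overlap in the 3 chosen entries either, which the choice itself favours. Over all genes 67.0% had groups that did not overlap, 38.0% higher and 29.0% lower in shALKBH5 cells.

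Because reads from shared exons can be given to either entry, the FPKM of each family were also added up per library. The RAB4B-EGLN2 family summed to 20.1, 17.0 and 20.4 FPKM in shALKBH5 and 17.2, 15.7 and 15.5 in shCtrl libraries. These ranges overlapped, and the log2 fold change of the sum was 0.25 (95% interval 0.06 to 0.44), against 4.00 for the readthrough alone. The readthrough made up 20.1%, 1.35% and 25.8% of the sum in shALKBH5 and 0%, 0.510% and 0% in shCtrl libraries. Its mean differed by 3.15 FPKM between the groups, and the mean of its parents together by -0.0904.

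The PPAN-P2RY11 family summed to 38.5, 36.8 and 38.4 FPKM in shALKBH5 and 31.5, 25.0 and 28.9 in shCtrl libraries, without overlap. The log2 fold change of the sum was 0.42 (95% interval 0.23 to 0.61). The readthrough made up 13.3%, 22.7% and 15.3% of the sum in shALKBH5 and 4.75%, 0% and 2.36% in shCtrl libraries, and its mean differed by 5.73 FPKM while that of its parents together differed by 3.69. For EEF1A1P11 with EEF1A1 the sum had a log2 fold change of 0.23 (95% interval 0.11 to 0.34). Each sum adds values scaled by different transcript lengths, and as it contains an entry chosen for its rise it is a description with no test.

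**Figure D2:**
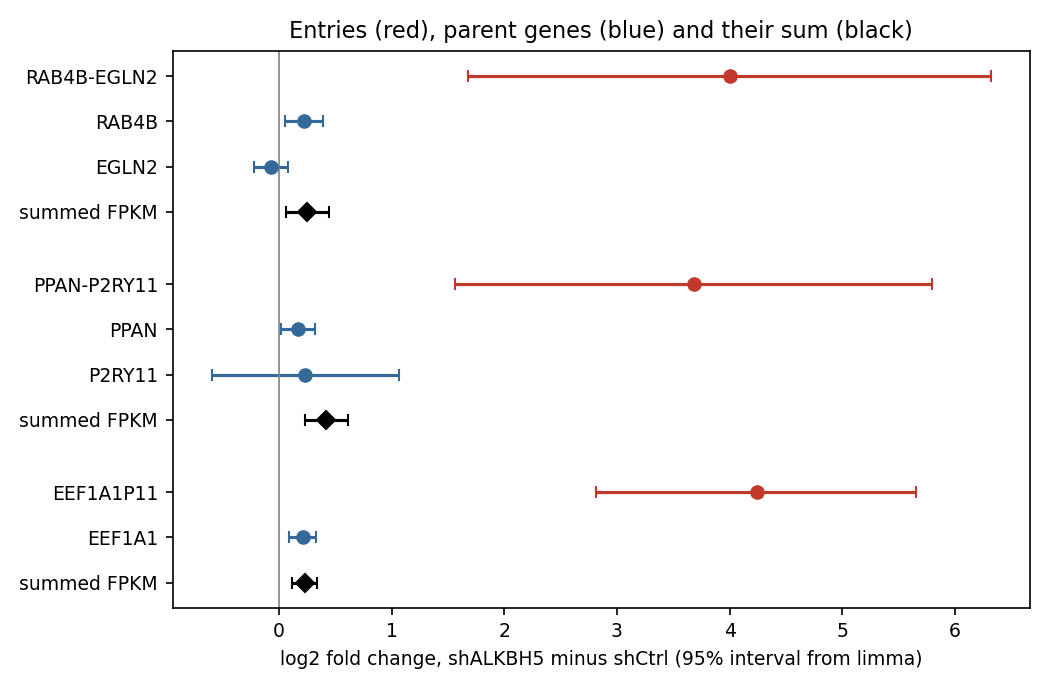
Log2 fold change of shALKBH5 minus shCtrl (horizontal axis) with its 95% interval from limma for each readthrough or pseudogene entry (red), its parent genes (blue) and the summed FPKM of the family (black). The entries lay between 3.68 and 4.24 with wide intervals, and the sums between 0.23 and 0.42.

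The 3 entries also varied far more between replicates than genes of like level. The SD of log2(FPKM + 0.1) within groups, pooled over both, was 1.61 for RAB4B-EGLN2, 1.49 for PPAN-P2RY11 and 1.00 for EEF1A1P11. Most of it lay in 1 group, with SDs in shALKBH5 and shCtrl of 2.22 and 0.49, 0.36 and 2.08, and 0.26 and 1.39. For PPAN-P2RY11 and EEF1A1P11 that was the shCtrl group, where the levels were low. The pooled SD was 0.07 for RAB4B, 0.08 for EGLN2 and 0.09 for PPAN. Among the 500 tested genes nearest in mean level over both groups, the pooled SDs put RAB4B-EGLN2 at the 93.0th percentile and PPAN-P2RY11 and EEF1A1P11 at the 99.8th. P2RY11, with an SD of 0.58, was at the 97.6th percentile.

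The same was seen for readthrough entries in general, taken as every entry whose name joins 2 other listed gene names with a hyphen. Of 101 such entries 49 passed the filter, and their median within-group SD was 0.81, against 0.11 over all genes tested. An SD above 1 was found in 21 of the 49 (42.9%), against 1.22% of all genes tested, and an SD above 2 in 11 (22.4%) against 0.323%. In 14 of the 49 the entry was listed at 0 in some but not all libraries of a group, which happened in 81 of all genes tested.

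Without RAB4B-EGLN2 and PPAN-P2RY11, 7 of the other 47 were higher and 2 lower in shALKBH5 cells by the limma test, or 19.1% called against 61.0% of all genes tested. Of these 9 calls 3 (BCL2L2-PABPN1, INMT-MINDY4 and MSANTD3-TMEFF1, all higher) passed the filter only through their shALKBH5 values, which favours a difference. Over all genes 528 of the 7917 calls passed through 1 group or the other only, and the shares are a description. The median log2 fold change of the 47 was -0.01, against 0.09 over all genes, yet 14 (29.8%) had a log2 fold change beyond 1 in either direction, against 12.3% of all genes. Of the 47 entries 9 passed the filter through 1 group only, as did 774 of all 12985 genes tested. Passing in this way favours large changes, so the 29.8% is a description too. An entry made up a median of 10.2% of the summed FPKM of its family over the 49, so a sum with the parents moves mostly with them. The median within-group SD was 0.10 for the sums and 0.10 for the parents summed alone, and the sum had the lower SD in 30 of 49. For RAB4B-EGLN2 the sum was more variable (0.12) than its parents alone (0.08).

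**Figure D3:**
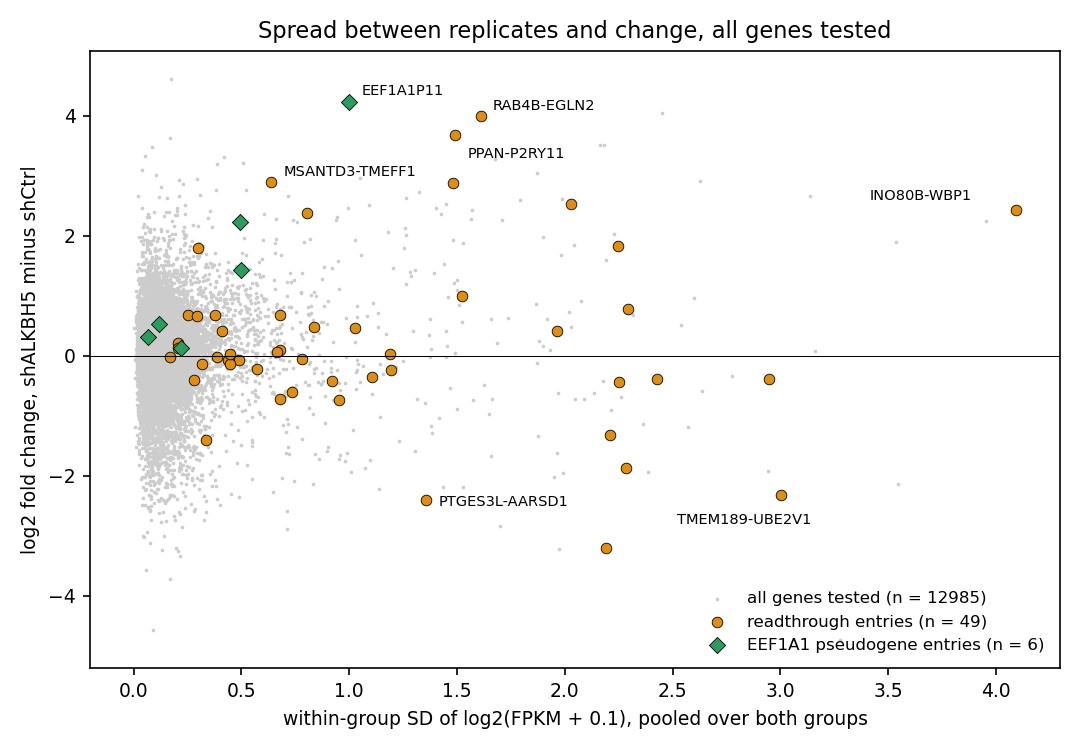
Log2 fold change of shALKBH5 minus shCtrl (vertical axis) against the within-group SD of log2(FPKM + 0.1) pooled over both groups (horizontal axis) for all 12985 genes tested (grey), 49 readthrough entries (orange) and 6 EEF1A1 pseudogene entries (green). Readthrough entries spread to the right, 21 of them beyond an SD of 1, and RAB4B-EGLN2, PPAN-P2RY11 and EEF1A1P11 lay at the upper edge.

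The entries with the largest spread, chosen after their values were seen, are given beside their parents within libraries as a description. INO80B-WBP1 was listed at 12.6, 0 and 15.8 FPKM in shALKBH5 and 0, 0 and 12.8 in shCtrl libraries. In the same libraries INO80B, a subunit of the INO80 chromatin remodeller, was at 10.8, 18.7 and 12 and at 21.5, 17.8 and 14.3 FPKM, so it was lower wherever the readthrough was not at 0. The other parent, WBP1, was at 40.1, 45.9 and 37.7 and at 44.6, 39.6 and 33.8 FPKM, and did not separate in this way. TMEM189-UBE2V1 was at 16.2 FPKM in shCtrl replicate 1 and at most 0.0301 in the other 5 libraries, and UBE2V1, a partner of ubiquitin-conjugating enzymes, was at 40.2 in that library and 47.7 to 55.6 in the others. TMEM189 was at 5.01 FPKM in that library and 6.03 to 8.24 in the others. BIVM-ERCC5 was listed at 3.79 and 4.01 FPKM in replicate 3 of shALKBH5 and shCtrl and at most 0.110 elsewhere, while ERCC5, a nuclease of excision repair, was at 0.448 and 0.166 in replicate 3 and 2.07 to 3.77 elsewhere. BIVM was lowest in replicate 3 of each group, at 0.231 and 0.810 FPKM. Its 0.810 lay above the 0.726 in shALKBH5 replicate 2, where the readthrough was at 0. None of the 3 passed the test. The SD of the summed family was 0.07, 0.08 and 0.18, against 0.22, 0.10 and 1.38 for the parents summed alone and 4.09, 3.00 and 2.95 for the entries. Over the 49 entries the family sum had a lower SD than the parents alone in 30, so these 3 do not stand for all.

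Besides RAB4B-EGLN2 and PPAN-P2RY11, the readthrough entry with the largest rise without overlap was MSANTD3-TMEFF1. It was at 1.29, 1.57 and 1.26 FPKM in shALKBH5 and 0.128, 0 and 0.232 in shCtrl libraries (log2 fold change 2.90), and like RAB4B-EGLN2 it passed the filter only through its shALKBH5 values, so this rise is a description. Its downstream parent TMEFF1 went the other way, at 0.0299, 0 and 0 against 0.572, 1.29 and 0.867 FPKM, below the filter and so not tested. MSANTD3 was at 9.29, 9.86 and 9.53 against 8.00, 8.74 and 8.73 FPKM (log2 fold change 0.17, adjusted p = 0.0324). That call was lost after rescaling and when any library other than shCtrl replicate 2 was left out (0.13 to 0.19).

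The 2 readthrough entries called lower were PTGES3L-AARSD1 and IQCJ-SCHIP1. HNRNPUL2-BSCL2, named after its values were seen, was at 6.03, 0 and 1.76 FPKM in shALKBH5 and 8.25, 7.31 and 14.1 in shCtrl libraries. Its groups did not overlap and its log2 fold change was larger in size, at -3.20 (95% interval -6.31 to -0.09), but it missed the threshold (adjusted p = 0.0707, limma). PTGES3L-AARSD1 was at 1.12, 2.10 and 0.202 FPKM in shALKBH5 and 2.51, 3.41 and 13 in shCtrl libraries (log2 fold change -2.40, adjusted p = 0.0371, limma). In shCtrl replicate 3, where it reached 13, its parent AARSD1, which edits mischarged alanyl-tRNA, was at 2.92 FPKM against 7.21 to 9.48 in the other 5 libraries. Without shCtrl replicate 3 the log2 fold change was -1.70 (adjusted p = 0.105), and leaving out shALKBH5 replicate 1 or 3 or shCtrl replicate 2 also ended the call, at -2.60, -1.59 and -2.65. IQCJ-SCHIP1 was at 3.03, 1.78 and 1.80 against 6.13, 4.86 and 6.53 FPKM (log2 fold change -1.40, SE 0.211, adjusted p = 0.000888), and made up most of its family, since IQCJ was at most 0.0139 and SCHIP1 at most 1.05 FPKM. The IQCJ-SCHIP1 call held with each library left out in turn.

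RAB4B is also a parent of MIA-RAB4B, which joins it to the upstream gene MIA, a secreted melanoma protein, and which was looked up after its values were seen. MIA-RAB4B was at 4.71, 6.35 and 5.93 FPKM in shALKBH5 and 2.30, 4.14 and 4.25 in shCtrl libraries (log2 fold change 0.69, SE 0.234, adjusted p = 0.0350, limma), and was not called without shALKBH5 replicate 2 (0.61) or 3 (0.65). MIA itself rose by 0.18 on the log2 scale (adjusted p = 0.0312), a call lost after rescaling (0.10, adjusted p = 0.282) and without shALKBH5 replicate 1 (adjusted p = 0.0949) or 3 (0.0932) or shCtrl replicate 3 (0.0519). At the other locus EIF3G, a translation initiation factor encoded on the opposite strand across the end of P2RY11, fell by 0.70 on the log2 scale (adjusted p = 1.144e-05). Whether the authors' counting used strand is not given in the sources used here, so reads over that overlap may belong to either gene.

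EEF1A1P11 is 1 of 19 listed pseudogene entries of EEF1A1, of which 6 passed the filter, and the other 13 had means of at most 0.195 FPKM. Besides EEF1A1P11, chosen for its rise, 4 of the other 5 were higher in shALKBH5 cells, where 34.7% of all genes were called higher, and none was lower. All of them resemble the same mRNA, so they are not independent of each other. EEF1A1P9 was at 6.47, 5.44 and 2.88 against 0.889, 0.695 and 1.20 FPKM (log2 fold change 2.24, SE 0.307, adjusted p = 0.000551, limma). EEF1A1P13 was at 8.26, 10.7 and 9.57 against 2.02, 3.76 and 5.26 FPKM (1.44, adjusted p = 0.00484). Both were low entries whose groups did not overlap.

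The abundant copies changed much less. EEF1A1P6 was at 212, 220 and 207 against 158, 130 and 156 FPKM (log2 fold change 0.53, adjusted p = 0.000698), and EEF1A1P5 at 732, 776 and 715 against 563, 616 and 617 (0.31, adjusted p = 0.00141). EEF1A1P19 was at 26.9, 26.3 and 19.2 against 21.3, 24.5 and 20.1 FPKM and did not pass (0.13, 95% interval -0.20 to 0.45, adjusted p = 0.456, limma). The 4 calls held after rescaling and with each library left out in turn. Only EEF1A1P11 had an SD near 1 on the log2 scale.

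**Figure D4:**
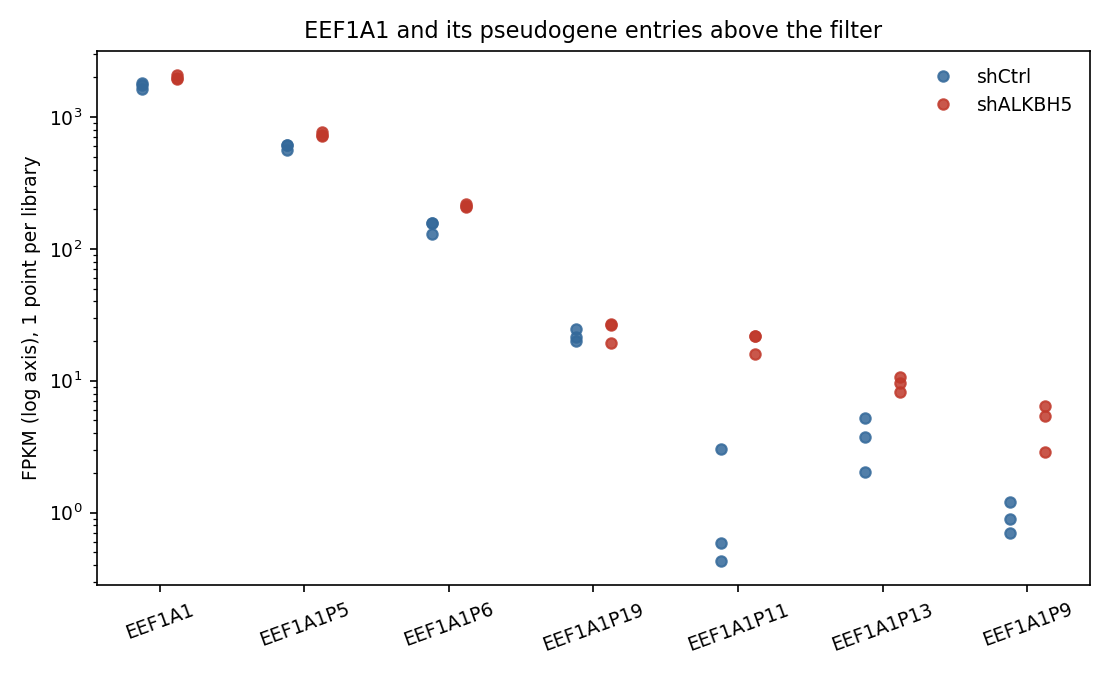
FPKM (vertical log axis) of EEF1A1 and its 6 pseudogene entries above the filter in each shCtrl (blue) and shALKBH5 (red) input library, 1 point per library. EEF1A1, EEF1A1P5 and EEF1A1P6 differed little, EEF1A1P19 overlapped, and EEF1A1P11, EEF1A1P13 and EEF1A1P9 were higher in all shALKBH5 libraries.

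Pseudogene entries as a whole, taken as those named after a listed gene with P and a number, did not stand out in direction. Of 2233 listed 528 passed the filter, 129 were higher and 98 lower in shALKBH5 cells (43.0% called, against 61.0% of all genes tested), and 12.3% had a log2 fold change beyond 1, the same share as over all genes tested. Of the 227 calls 22 passed the filter through 1 group only. Their median within-group SD of 0.24 lay between that of all genes and that of readthrough entries. After EEF1A1P11 the largest rises without overlap were in FGF7P3 and RPSAP47. Both passed the filter only through their shALKBH5 values, so their rises are a description. FGF7P3 was at 1.65, 1.57 and 1.58 against 0.0261, 0.171 and 0.0427 FPKM (log2 fold change 3.32), while FGF7, a growth factor of epithelial cells, was at most 0.0917. RPSAP47 was at 4.47, 5.73 and 0.458 against 0.223, 0.319 and 0.278 FPKM (2.73), and was not called without shALKBH5 replicate 1 (2.28) or 2 (2.10) or shCtrl replicate 1 (2.63) or 3 (2.74). Its parent RPSA, a small-subunit ribosomal protein, was at 765, 783 and 776 against 708, 617 and 687 FPKM (0.21, adjusted p = 0.0112, lost after rescaling).

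The pseudogene entries that fell most differed in whether the parent fell too. TUBB2BP1 (log2 fold change -2.30) and HMGN1P4 (-2.08) fell with TUBB2B (-1.03), a beta tubulin, and HMGN1 (-0.65), a nucleosome-binding protein. HMGN1P4 passed the filter only through its shCtrl values. RPS26P11 fell from 4.15, 2.72 and 4.43 to 0.830, 0.739 and 0.596 FPKM (-2.22, SE 0.199), while RPS26, a ribosomal protein, rose from 219, 198 and 215 to 259, 264 and 254 (0.30, adjusted p = 0.000930, limma).

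The genes whose log2 levels over the 6 libraries were most like an entry are given by Pearson r as a description. For RAB4B-EGLN2 they were AC007000 (0.992), the readthrough entry PKD1P6-NPIPP1 (0.989) and AP000580 (0.987). PKD1P6-NPIPP1 was at 9.09, 6.16 and 9.10 FPKM in shALKBH5 and 4.49, 5.58 and 4.72 in shCtrl libraries, again with replicate 2 lowest in shALKBH5. For PPAN-P2RY11 they were RPL18AP3 (0.998), a ribosomal protein pseudogene, RPSA (0.997) and PPP4C (0.997), and for EEF1A1P11 KLF9 (0.998), MAK16 (0.997) and PALB2 (0.997). The points share 2 groups and their library scaling.

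Genes that work with the parents were taken from lists set by role, to be read against the 34.7% of all genes called higher and 26.2% called lower. In HIF hydroxylation, EGLN1 (log2 fold change 0.47), HIF1AN (0.56) and VHL (0.67) rose, EPAS1 fell (-0.70), and EGLN2 and HIF1A (-0.36, adjusted p = 0.0630) did not pass, so 3 were higher and 1 lower of 6 tested. After rescaling HIF1A was called lower too (-0.44, adjusted p = 0.0176). EGLN1, EGLN3 and HIF1AN are further HIF hydroxylases, VHL is the ubiquitin ligase subunit that reads the mark, and EPAS1 encodes HIF-2 alpha. EGLN3 was below the filter, at 0.0218 to 0.0279 FPKM in shALKBH5 and 0.0586 to 0.0884 in shCtrl libraries, and was not tested. Of 7 endosomal RAB genes, RAB4B, RAB5A (0.66), RAB5B (0.79) and RAB5C (0.36) rose, RAB4A (-0.67), the close paralog of RAB4B, and RAB11B (-0.25) fell, and RAB11A did not pass (0.03). The RAB4B call is the one described above that rescaling and leaving out most libraries ended.

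Among the Brix-domain ribosome assembly factors, RPF1 (0.29), RPF2 (0.86), BRIX1 (0.54) and IMP4 (0.43) rose, 4 of 5 tested, and PPAN narrowly missed the threshold (0.17, adjusted p = 0.0537). The RPF1 call was lost after rescaling (0.21, adjusted p = 0.0902). It was also lost without shALKBH5 replicate 1 (0.30) or 2 (0.23), or shCtrl replicate 1 (0.19) or 3 (0.32). Of 10 P2Y receptors 4 were listed and only P2RY11 passed the filter, with P2RY1 and P2RY6 at most 0.384 FPKM. Of 6 elongation factors, EEF1A1, EEF1B2 (0.17), EEF1G (0.31) and EEF2 (0.32) rose, EEF1A2 (-0.22), the tissue-restricted paralog of EEF1A1, fell, and EEF1D (0.08) did not pass. After rescaling EEF1B2 (0.09, adjusted p = 0.167) was no longer called, like EEF1A1. These lists too are to be read against the 34.7% of all genes called higher and 26.2% called lower.

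The m6A peaks came as a list for each group without values for single libraries. Peak differences between the groups therefore have no replicate check. Each list held 20 peaks named for 7 or 6 of the 8 entries, of 46039 peaks in the shALKBH5 and 44304 in the shCtrl list. Of these, 19 in the shALKBH5 list overlapped a peak of the other list by at least 1 base, and all 20 in the shCtrl list did. PPAN-P2RY11 had no peak under its name in either list.

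All peaks named RAB4B-EGLN2 lay where EGLN2 also lies. In the shALKBH5 list they ran from 40800316 to 40801362 with a fold enrichment (IP relative to input) of 3.62, from 40800372 to 40801361 (3.23) and from 40807836 to 40808434 (6.26). The shCtrl peaks at the same places had folds of 2.86, 2.85 and 5.28. The peak named RAB4B-EGLN2 at the 3′ end stopped at the last base of EGLN2, 40808434, while the one named EGLN2, from 40807938 with a fold of 5.89 (5.24 in shCtrl), stopped at the last base of RAB4B-EGLN2, 40808418. The name a list gives to a peak there does not tell which of the overlapping transcripts carried the m6A.

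RAB4B had its highest fold in an intron, from 40785772 to 40786577, at 71.0 in the shALKBH5 list, where the median peak had 5.31. The shCtrl peak there, ending at 40786458, had 48.5. Its 3′ UTR peaks had folds near those of the shCtrl list, at 3.75 against 3.72 and 3.75. Of its 5′ UTR peaks, the shorter had a fold of 1.59 in the shALKBH5 and 4.68 in the shCtrl list, and the longer 1.58 and 2.06. Neither of these shALKBH5 peaks passed the stricter limit, and both shCtrl peaks did.

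At the other locus, a peak named PPAN ran from 10110239 to 10114780, the last base of PPAN-P2RY11 and past the end of PPAN, with folds of 9.07 and 8.58. A further PPAN peak, from 10110182 in shALKBH5 and 10110301 in shCtrl, ended with PPAN at 10112012 (11.3 and 10.5). Another, from 10111693 to 10112145 (2.14 and 2.64), began at the first base of P2RY11 and lay wholly within that gene. The P2RY11 peak over its 3′ UTR, from 10113649 to 10115372, had folds of 13 and 10.7. The stretch shared by all 3 entries, from 10111693 to 10112012, was covered by PPAN peaks in both lists.

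EEF1A1P11 had a peak only in the shALKBH5 list, of 90 bases at its 3′ end from 96448229 to 96448318, with a fold of 3.98 and a log10 p of -2.07 from the peak caller. It did not pass a stricter limit of a fold of 2 and a false discovery rate of 0.01. With EEF1A1P11 at 0.428 to 3.05 FPKM in the shCtrl input libraries, the lack of a shCtrl peak cannot be told apart from too few reads. Each list had a peak in 3 of the EEF1A1 pseudogene entries, and EEF1A1P13 and EEF1A1P5, which were higher in shALKBH5 cells, had one only in the shCtrl list. The 3′ UTR peak of EEF1A1, from 73517485 to 73517843, had folds of 3.02 and 3.63. Its 5′ UTR peaks had folds of 2.62, which did not pass the stricter limit, and 2.86 in the shALKBH5 list. Those in the shCtrl list had 8.94 for a longer peak over the first of these and 4.21 for the one over the other. Peaks of the same extent or nearly so for EEF1A1, P2RY11 and RAB4B-EGLN2 were among the 6513 in the authors' table of differential peaks, from which only positions were used.

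**Figure D5:**
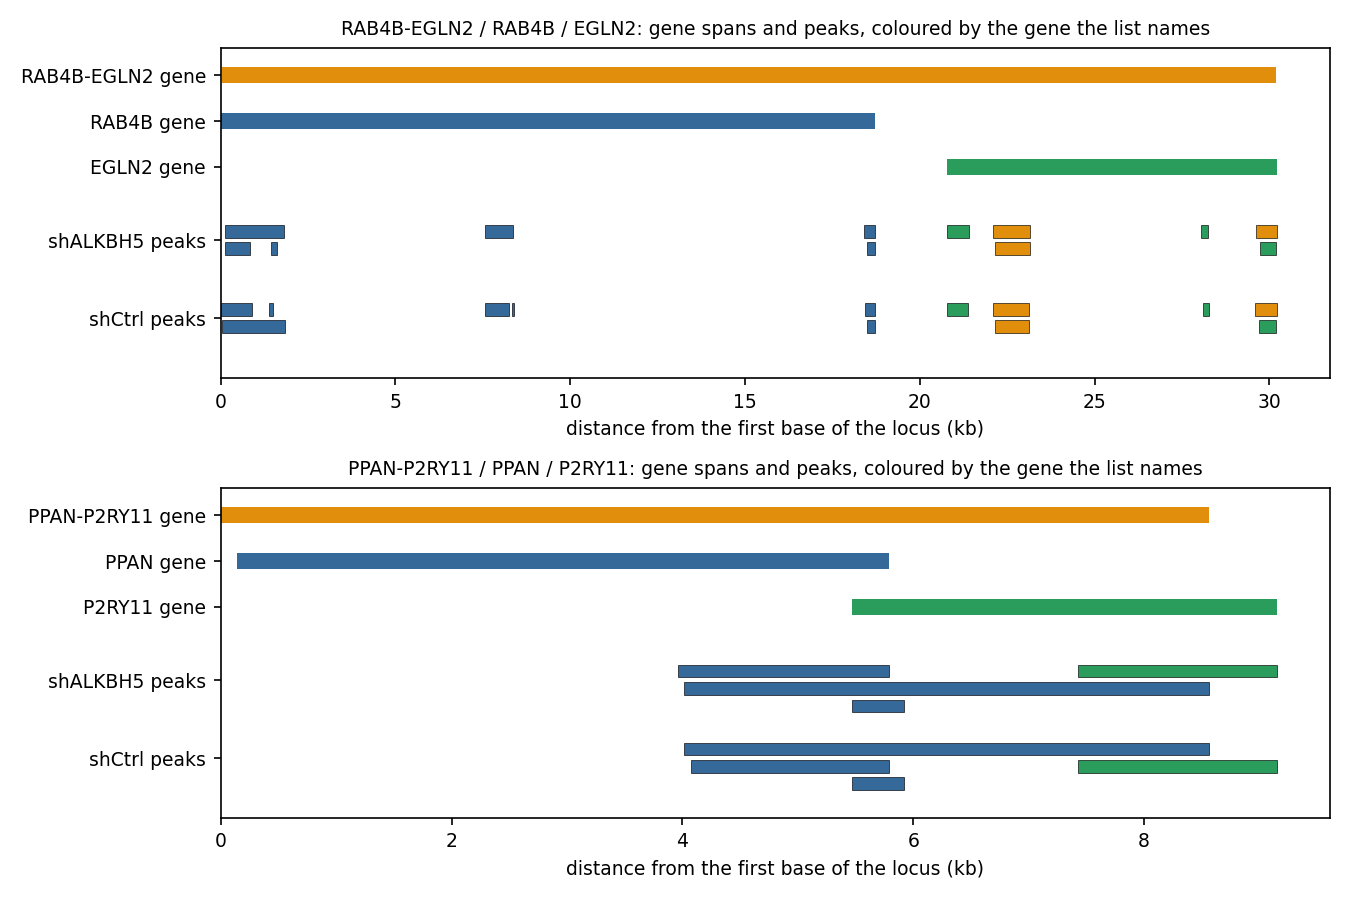
Gene spans and m6A peaks of both lists at the RAB4B-EGLN2 (top) and PPAN-P2RY11 (bottom) loci, against distance in kb from the first base of the locus, with peaks coloured as the gene they are named for. Peaks named RAB4B-EGLN2 lay over EGLN2, and no peak was named for PPAN-P2RY11.

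Readthrough entries as a group were named at peaks in the same way. In the shALKBH5 list 48 of the 101 entries had 131 peaks, of which 101 (77.1%) lay wholly within a parent gene, and in the shCtrl list 49 entries had 138 peaks, of which 111 (80.4%) did.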

How the data were processed

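Input and m6A IP libraries of A375 cells were grouped by their labels into shALKBH5 and shCtrl, 3 of each kind per group. The authors deposited expression as FPKM per input library. For each group the authors deposited a list of m6A peaks, each with its position, span, fold enrichment (a ratio of IP to input) and a log10 p and log10 FDR, treated here as a score. The paper's methods name edgeR, which needs counts, so limma was used on FPKM instead. The aligner, counter, annotation and peak caller are not given in the sources used here. The submitters' processing notes list the mouse build mm10, yet 21679 of 21699 same-named genes (99.9%) overlapped their RefSeq GRCh38.p14 positions. The 6 columns of the authors' own comparison and 3 in the differential peak table (fold changes, p-values, calls) were not used.

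The 12985 genes whose mean reached 0.5 FPKM were fitted on log2(FPKM + 0.1) with limma 3.58.1 in R 4.3.3 (lmFit, eBayes with trend, two-sided, Benjamini-Hochberg over all of them, threshold 0.05). On simulated data of 12985 genes with 200 changed, 87.5% were recovered, 82% at a log2 change of 1 and 93% at 2, with 3.85% of calls false. The simulation drew independent normal noise and changed far fewer genes than the 61.0% called in the data. Its share of false calls therefore need not hold for these data or for readthrough entries. Low FPKM values showed no steps (the commonest ratio of replicate 1 to 2 made up 0.272% and 0.210% of them), so depth is unknown and no counting interval is given. An exact permutation test of 3 against 3 cannot go below a two-sided p of 0.1. At most 0.123% of values were identical between any 2 libraries. Deviations of same-numbered libraries correlated at 0.02, -0.05 and 0.06, so the numbers do not pair them. Peak starts count from 0 in the lists and were changed to count from 1. Promoter windows from RefSeq matched 6 of the 8 entries.

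The entries and lists were chosen with earlier results of these data known. Genes named are the 8 entries, ALKBH5, all EEF1A1 pseudogene entries tested, the 3 largest called rises and falls without overlap among readthrough and among pseudogene entries with their parents, lists by role, genes adjacent to the families and the 3 genes most alike in pattern. INO80B-WBP1, TMEM189-UBE2V1, BIVM-ERCC5, HNRNPUL2-BSCL2, BCL2L2-PABPN1, INMT-MINDY4 and MIA-RAB4B fall outside this rule. Alternatives were other pseudocounts, filters, eBayes settings and scaling, a replicate block, leaving out each library, and stricter peak limits. No length-weighted family sum was run because transcript lengths were not used here.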

Additional observations from a re-analysis of the deposited data

How the results depend on the processing

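Of 112 log2 fold changes of the 8 entries recomputed under alternatives, 96 kept their direction and side of the threshold, and of 88 counts 81 stayed within 1.5 times. The 96 include all 14 of each of RAB4B-EGLN2, PPAN-P2RY11 and EEF1A1P11, which were chosen for their rise and gain no support from this. Of 14 each, RAB4B kept 7, EGLN2 14, PPAN 9, P2RY11 12 and EEF1A1 12. The log2 fold change depended on the pseudocount for RAB4B-EGLN2 (1.72 at 1 and 6.37 at 0.01), PPAN-P2RY11 (2.18 and 4.86) and EEF1A1P11 (3.30 and 4.40), since values near 0 enter the logarithm. With each library left out they ranged from 3.27 to 5.28, 2.52 to 4.52 and 3.74 to 5.03. RAB4B was no longer called after rescaling (0.14) and in 5 of 6 leave-one-out fits (0.19 to 0.24, and 0.27 in the fit that kept the call). EEF1A1 was no longer called after rescaling (0.13) or without a filter (0.21, adjusted p = 0.0746). PPAN became called with robust eBayes (0.17, adjusted p = 0.0477), a filter of 1 FPKM (0.17, adjusted p = 0.0493) and without shALKBH5 replicate 2 or shCtrl replicate 1 (both 0.22), and was not called in the other leave-one-out fits (from 0.12). P2RY11 ranged from -0.11 to 0.48 and turned at -0.11 and -0.09. The 2 readthrough entries called lower became 1 with robust eBayes, without trend and without a filter, and 1 to 3 with libraries left out. Readthrough entries called higher fell from 9 to 6 without a filter or with one of 1 FPKM, where fewer of them could be tested in the latter. These counts include RAB4B-EGLN2 and PPAN-P2RY11, chosen for their rise. The cause of the other changes was not tested.

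The replicate numbers share only a number. With the replicate block RAB4B was not called (0.22, adjusted p = 0.0716), PPAN was (0.17, adjusted p = 0.0419), and 4 readthrough entries were lower. Calls over all genes were 4142 higher and 3129 lower, against 4509 and 3408. Unknown depth limits what the low entries can show, as does the 1 peak list per group.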
